A study of Mus musculus with 3 samples.

Results

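Mouse spleens that carried islet grafts were compared on day 139 and on day 2 after transplantation, to describe which transcripts of the early graft phase were lower at the late time and which were higher. The comparison took in every probe that was no control and was well above background on at least 1 of the 2 arrays. These were 30852 of the 55681 probes of the array, 27221 of them well above background on both arrays, 2762 on day 2 alone and 869 on day 139 alone. In each of the 3 groups the mice were C57BL/6J recipients of 25 islets in the spleen and 100 islets beneath the kidney capsule. Total RNA from the graft-bearing spleens was measured, and the portion of the spleen taken is not given in the sources used here. The day 0 spleen was taken right after transplantation, the day 2 spleen in the first days, and the day 139 spleen from a recipient that had lost the kidney with the capsular graft on day 100. By the study's methods the recipients were male, had been made diabetic with streptozotocin, and received syngeneic islets. The treatment text of the labels gives the capsular graft for every group, while their characteristics name it for day 139 alone. The labels give neither the age of the mice at sampling nor the number of mice behind an array.

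Each condition had 1 array, so no test of the conditions was possible, no p-value is given, and every difference is one between 2 arrays. Day after transplantation, age, nephrectomy, the individual mouse and the array cannot be told apart. In spleen RNA, a change in the number of cells of a type and a change in RNA per cell cannot be told apart either. Values are the normalized intensities the authors deposited, on a linear scale, and where 3 values stand in a row they belong to day 0, day 2 and day 139 in that order. The day 0 array is shown for context, and its comparison with day 2 shares the day 2 array.

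The spleen holds white pulp, where B and T lymphocytes lie in follicles and sheaths, and red pulp, where macrophages clear old blood cells and, in the mouse, red cells and platelets are still made. Placing cells into such an organ wounds it. In wounds, macrophages and contractile fibroblasts lay down matrix that is later remodelled, while B cells that meet antigen form germinal centers and give rise to antibody-secreting plasma cells.

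A probe was called higher when its ratio of day 139 over day 2 was at least 1.5 and its Z-score at least 2, and lower when the ratio was at most 0.66 and the Z-score at most -2, the limits of the study. The Z-score divides the log2 ratio by the spread of the 1000 probes nearest in intensity. Of the 30852 probes, 769 (2.49%) were called higher on day 139 and 493 (1.6%) were called lower. Counts of called members in a gene list are to be read beside these shares. With a ratio of 2 alone as the limit, 5.58% of the probes were higher and 6.02% were lower. The median log2 ratio of all probes was -0.04 and their SD was 0.80. The error that the scanner software estimates for a log2 ratio had a median of 0.21 over probes well above background on both arrays. Spike-in controls read 63.3% of their day 2 signal on day 139 before normalization. Scaling to them in place of quantile normalization raised the median of all probes to 0.39 and turned the calls to 1611 higher and 237 lower. Changes in gene groups are therefore described relative to all probes.

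The arrays carried the marks of spleen. Cd79b of B cells had values of 18080, 18240 and 40170, Marco of marginal zone macrophages 22779, 16599 and 9380 and Cd5l of red pulp macrophages 12226, 18795 and 18121, all well above background. The numbers of probes well above background were 30293, 29983 and 28090, and none was saturated. Over probes printed on 8 or more spots, the SD of log2 signal between spots of 1 array had a median of 0.09 on day 2 and 0.06 on day 139. This spread is technical and says nothing of differences between mice.

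**Figure D1:**
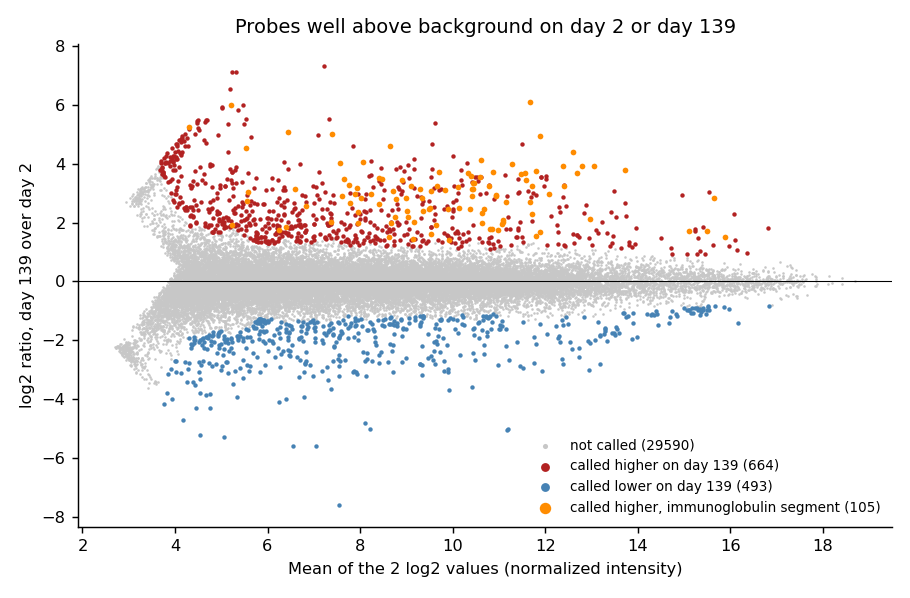
The log2 ratio of day 139 over day 2 (vertical axis) against the mean of the 2 log2 normalized intensities (horizontal axis), 1 point per probe well above background on at least 1 of the 2 arrays. Red and orange points are the 769 probes called higher, 105 of them immunoglobulin segments (orange), and blue points are the 493 called lower. The arms at the left edge are probes at or near background on 1 array.

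Some of the largest differences are shown first by the probes that measured them. Probes of 60 bases within the coding part of 3 transcripts are given on mm9, because their differences were among the largest of those lower on day 139. The Arg1 probe lies at chr10:24636194-24636253 on the minus strand, the Spp1 probe at chr5:104868502-104868561 on the plus strand, and the Saa3 probe at chr7:53970389-53970448 on the minus strand.
Arg1: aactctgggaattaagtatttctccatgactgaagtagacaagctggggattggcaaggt
Spp1: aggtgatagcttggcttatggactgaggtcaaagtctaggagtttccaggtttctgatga
Saa3: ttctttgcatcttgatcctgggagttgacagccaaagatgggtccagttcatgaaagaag

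Probes of immunoglobulin kappa variable segments, which were far higher on day 139, are shown next because segments of this family are alike in sequence. They lie in the kappa locus on mm9, at chr6:69850418-69850477 for Igkv5-39, chr6:69494355-69494414 for Igkv4-57-1 and chr6:69147579-69147636 for Igkv4-73, all on the minus strand. Capitals mark a run of 9 bases that all 3 probes share.
Igkv5-39: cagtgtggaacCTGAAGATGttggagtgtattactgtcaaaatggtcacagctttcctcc
Igkv4-57-1: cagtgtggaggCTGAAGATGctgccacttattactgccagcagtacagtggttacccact
Igkv4-73: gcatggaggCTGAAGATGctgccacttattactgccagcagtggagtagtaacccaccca

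Part of the repair macrophage list was lower on day 139. The Arg1 gene encodes arginase of repair macrophages, and its values were 1654, 2602 and 13.4. It was abundant on both early arrays and not well above background on day 139, which makes it at least 156-fold lower, the largest such bound of any named gene on the array. Spp1, which encodes the matrix protein osteopontin, had values of 114, 648 and 13.4 and was at least 38.9-fold lower. Trem2, a lipid receptor of macrophages, stood at 184, 1738 and 241 and was 7.20-fold lower. All 3 genes had their peak on the day 2 array, but Arg1 alone was of like size on day 0. Ccl24, a chemokine for eosinophils, had values of 1197, 853 and 92.7, a 9.20-fold difference between day 2 and day 139. Clec4d, a receptor for microbial lipids on myeloid cells, was 4.22-fold lower (3817, 1580 and 375) and, like Ccl24, had its highest value on day 0. Of the 22 measured genes of the repair macrophage list, 6 were called lower and 0 higher, and the median log2 ratio was -0.92 against -0.04 for all probes. General markers of the lineage differed less. Cd68, a lysosomal protein of macrophages, had values of 6455, 8229 and 5424, Mrc1, the mannose receptor, 5668, 3495 and 3697, and Lgals3, a galectin, 16572, 13870 and 12675, and none of them was called. The median was -0.52 with a normexp background correction and -0.54 over genes well above background on both arrays.

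Macrophages that reside in the spleen split within their own list. Spic, the transcription factor of red pulp macrophages, had values of 13170, 4011 and 9906 and was 2.47-fold higher on day 139 than on day 2. Timd4, a receptor for dying cells, was 2.50-fold higher, with 216, 203 and 507. Vsig4, a complement receptor, peaked on day 2 (145, 1776 and 341) and was 5.20-fold lower on day 139, and the scavenger receptor Msr1 was 3.80-fold lower (377, 253 and 66.5). These were the 4 called genes of 20 measured. The median of -0.27, against -0.04 for all probes, became 0.14 under spike-in scaling, where all probes had 0.39. The list thus lay below all probes under both scalings. Hmox1, the enzyme that breaks down heme, had its lowest value on day 2 as Spic did, with 35150, 11014 and 16617, and was not called.

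Among acute phase proteins, the serum amyloid genes were called lower. Saa3, made by macrophages and stromal cells, had values of 7834, 13382 and 403, and Saa1, best known from liver, 2367, 3483 and 272. They were 33.2-fold and 12.8-fold lower on day 139. No other gene of the 13 measured on this list was called lower. Lcn2 and Hp, which encode lipocalin and haptoglobin, were lower on day 2 than on day 0, with values of 9597, 2346 and 1738 and 15400, 3339 and 2693. Fgb, a fibrinogen chain, was called higher from a day 2 value not well above background, at least 9.62-fold, with 11.7, 10.3 and 135. Of the 16 measured inflammatory cytokine and receptor genes none passed the limits in either direction. Tnf stood at 169, 82.0 and 192 and Il10, which restrains macrophages, at 30.8, 19.0 and 55.0. The list went both ways, with 7 ratios above 1 and 9 below, and log2 ratios from -1.35 to 1.54. By a ratio of 2 alone, 2 genes were higher and 2 lower.

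Chemokines that draw monocytes and neutrophils were lower on day 139. Ccl2 and Ccl7, ligands of the monocyte receptor Ccr2, had values of 1955, 1005 and 151 and 867, 412 and 50.4, and were 6.65-fold and 8.17-fold lower. Cxcl5, a ligand of the neutrophil receptor Cxcr2, was 6.24-fold lower, with 785, 461 and 73.9. All 3 of these genes stood highest on day 0 and were already lower on day 2. Ccl6 and Ccl9, macrophage chemokines, peaked on day 2 instead, with 9555, 16684 and 3891 and 3283, 5550 and 1315, and were 4.29-fold and 4.22-fold lower. Ccl8, a further ligand of monocyte receptors, went the other way, with values of 24.5, 379.8 and 1600, and was 4.21-fold higher on day 139. In all, 6 of 23 measured genes of the list were called lower and 1 higher. The list median of -0.60 rested in part on dim probes, being -0.12 over genes well above background on both arrays. The interferon-induced Cxcl9 and Cxcl10 were not called, with values of 1007, 949 and 1353 and 1274, 1752 and 1612.

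Cxcl1, Cxcl2 and Cxcl3, neutrophil chemokines encoded close together on chromosome 5, are an example of early transcripts that left the measurable range. Their values were 158, 40.7 and 12.9 for Cxcl1, 257, 38.9 and 3.68 for Cxcl2 and 279, 18.2 and 4.30 for Cxcl3. None was well above background on day 139, so the differences from day 2 are bounds of at least 2.44-fold, 2.34-fold and 1.09-fold, and none passed the Z-score limit. Their promoters are shown because all 3 hold the same pair of overlapping matches to the kappaB motif, the element that NF-kappaB factors bind. The 150 bases before each start site come from RefSeq on GRCm38.p6, plus strand, at chr5:90891095-90891244 for Cxcl1, chr5:90903749-90903898 for Cxcl2 and chr5:90785951-90786100 for Cxcl3. Capitals mark the matches, which lie on both strands and overlap each other.
Cxcl1: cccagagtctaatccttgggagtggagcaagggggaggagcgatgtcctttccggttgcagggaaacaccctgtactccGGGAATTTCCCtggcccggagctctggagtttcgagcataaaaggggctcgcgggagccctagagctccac
Cxcl2: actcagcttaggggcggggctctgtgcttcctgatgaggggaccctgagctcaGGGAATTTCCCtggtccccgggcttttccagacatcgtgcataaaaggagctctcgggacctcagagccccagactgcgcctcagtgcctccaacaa
Cxcl3: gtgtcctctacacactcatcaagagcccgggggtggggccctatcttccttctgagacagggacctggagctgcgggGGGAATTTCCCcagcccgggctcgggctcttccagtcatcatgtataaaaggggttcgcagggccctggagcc

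Within the 250 bases before the start site, the kappaB motif was found on either strand in 7.25% of 32851 mouse promoters, and in 6 of the 15 promoters at hand for measured genes of the chemokine list. These were Ccl9, Ccr1, Cxcl1, Cxcl2, Cxcl3 and Cxcl10, of which only Ccl9 was called lower. A match describes the letters in this window and is no evidence of binding.

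The matrix of the early graft phase was lower on day 139. Col1a1 and Col3a1, the main fibrillar collagens of scar and granulation tissue, had values of 1179, 11182 and 1361 and 786, 9030 and 1334. Both peaked on day 2 and stood near their day 0 values on day 139, 8.22-fold and 6.77-fold below day 2. Col1a2, the partner chain of Col1a1, was 3.90-fold lower, with 6270, 29485 and 7569. Loxl2, which cross-links collagen, was 6.41-fold lower (625, 1921 and 299.9), and Fn1, the fibronectin on which early matrix is laid, 3.66-fold lower (13468, 17754 and 4856). For Loxl2 and Fn1 the late value lay below the day 0 value as well. Of 28 measured genes of the list 14 were called lower, against 1.6% of all probes, and the median log2 ratio was -1.40. The proteoglycans of settled connective tissue were the exception. Dcn, decorin, had values of 1585, 2067 and 9670 and was 4.68-fold higher on day 139. Lum, lumican, was 4.79-fold higher, with 17.3, 37.5 and 179.9. These 2 genes were the only members called higher.

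Enzymes that cut matrix, and their inhibitors, were lower too. Mmp3, the protease stromelysin, had values of 1055, 1215 and 143, Adamts4, which cleaves proteoglycans, 3084, 677 and 79.1, and Timp1, an inhibitor of metalloproteases, 5972, 3650 and 567. The differences from day 2 to day 139 were 8.49-fold, 8.55-fold and 6.44-fold. Adamts4 and Timp1 had their highest value on day 0, unlike the collagens. Mmp2, a gelatinase of stromal cells, followed the collagens, with 139, 742 and 298. In this list 6 of 16 measured genes were called lower and 0 higher, against 1.6% of all probes called lower. The median of -1.004 was -0.59 with a normexp correction. Of the 16, 3 were not well above background on day 139 and entered through day 2 alone. Over the 13 genes well above background on both arrays the median was -0.75.

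Contractile genes of smooth muscle and myofibroblasts moved like the fibrillar collagens. Acta2, smooth muscle actin, had values of 3362, 24801 and 3498, and Cnn1, the actin-binding calponin, 526, 2286 and 351. They were 7.09-fold and 6.51-fold lower on day 139 than on day 2. Actg2, a further smooth muscle actin, was 7.88-fold lower, with 565, 2684 and 340.5. Tagln (13382, 31416 and 8422) and Myh11 (91.1, 289 and 88.0), which encode transgelin and smooth muscle myosin, had the same peak on day 2. Of 11 measured genes 8 were called lower, against 1.6% of all probes, with a median of -1.72. Synpo2, a protein of the Z-disc, had close values on both arrays (442, 972 and 977). The CArG box, to which serum response factor binds, stood in the 250 bases before the start of 1 of 8 of these genes with a promoter at hand, Myl9, and in 1.47% of all promoters. Islet transcripts, described next, were also highest on day 2, with summed values of 7676, 19632 and 5202 over the 17 measured genes of the islet endocrine list. How far tissue carried into the spleen with the islets took part in the matrix and muscle values was not tested.

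Islet hormone and secretory granule transcripts were lower on day 139 than on day 2. Chga and Chgb, granule proteins of endocrine cells, had values of 884, 4716 and 392 for Chga and of 249, 2779 and 327 for Chgb, with log2 ratios of -3.59 and -3.09. Gcg, the glucagon gene of alpha cells, was 8.29-fold lower (879, 2581 and 311), Sst, the somatostatin gene of delta cells, 9.40-fold (141, 575 and 61.1), and Pyy, a peptide hormone gene, 12.5-fold (126, 583 and 46.6). Gcg, Sst and Pyy had late values below those of day 0 as well. Among beta cell genes, Iapp, which encodes amylin, was 5.98-fold lower (3267, 16732 and 2799), and Ins1 was 2.77-fold lower (27132, 36989 and 13369). Both insulin genes were well above background in the late spleen. Mafa, a beta cell transcription factor, was not called, with 841, 913 and 848. Lower calls numbered 11 of 17 measured genes in the islet endocrine list and 9 of 13 in the beta cell list. None was called higher, and of all probes 1.6% were called lower. The medians of -2.87 and -2.07 were -1.39 and -0.84 with a normexp correction, under which dim signals are offset upward. Of these genes, 2 of the 17 and 4 of the 13 were not well above background on day 139. They entered through day 2 alone, so the filter favours ratios below 1 for them. Over genes well above background on both arrays the medians were -2.61 and -1.43. The portion of the spleen, and so of the graft, that was taken for RNA is not given in the sources used here.

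Several genes that respond to glucocorticoids and fasting were lower on day 139, and they differed in their course from day 0 to day 2. Pdk4, a kinase that spares glucose, had values of 672, 704 and 114 and was 6.16-fold lower on day 139. Angptl4, an inhibitor of lipoprotein lipase, was 4.42-fold lower (8349, 7549 and 1708), and Hif3a, a hypoxia factor that glucocorticoids induce, 4.32-fold (316, 307 and 71.1). Day 0 and day 2 values of these 3 genes were of like size. The metallothioneins Mt1 and Mt2, which bind zinc, were far lower on day 2 than on day 0, with 79677, 19340 and 9257 and 74246, 17505 and 5821. Fkbp5, a classic glucocorticoid target, had 4852, 1379 and 1467 and was not called. In this list 6 of 13 measured genes were called lower, with a median of -0.84, and its summed values were 215017, 89970 and 42136. Cdkn1a, a cell cycle inhibitor, and Gdf15, a stress hormone, had 581, 615 and 165 and 597, 511 and 161 and were 3.74-fold and 3.18-fold lower. They were the 2 genes called lower of 16 measured p53 targets, and 2 were called higher. Rrm2b, a subunit of ribonucleotide reductase, was 4.27-fold higher, with dim values of 28.9, 17.1 and 73.03, and Trp53inp1, a nuclear protein that p53 induces, 2.53-fold (1736, 1837 and 4653). The list as a whole had a median of -0.10, which became 0.31 under spike-in scaling, where all probes had 0.39.

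Few genes of dividing and blood-forming cells passed the limits, although most had a ratio under 1. All 30 measured mitosis genes had a ratio under 1, but 1 passed the limits, Birc5, which encodes survivin, with 21539, 27638 and 12864. Plk1, a mitotic kinase, had 6414, 8439 and 4086 and Mki67, the proliferation antigen, 30690, 27728 and 15556. The DNA replication list had 1 gene called lower, Mcm10, of 32. Among histones that are made in S phase 3 of 40 were called lower, against 1.6% of all probes. The list medians of -0.79, -0.80 and -0.62 became -0.39, -0.43 and -0.20 under spike-in scaling, where all probes had 0.39. In the erythroid list, Gata1, the master factor of the lineage, was 2.31-fold lower (9122, 11180 and 4831) and alone passed, of 39 genes with a median of -0.54. Pf4, platelet factor 4, and Selp, the adhesion receptor P-selectin, were called lower among 17 megakaryocyte genes, with 15698, 19190 and 9062 and 172, 162 and 47.7.

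Calls went in both directions among genes of mast cells and basophils. Cpa3, a carboxypeptidase, and Cma1, a chymase of mast cells, peaked on day 2, with 64.7, 204 and 39.7 and 70.8, 126 and 17.6, and were 5.13-fold and at least 7.14-fold lower. Mcpt8, a protease of basophils, was 2.58-fold higher, with 27.1, 39.9 and 103. These were the called members of 11 measured.

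**Figure D2:**
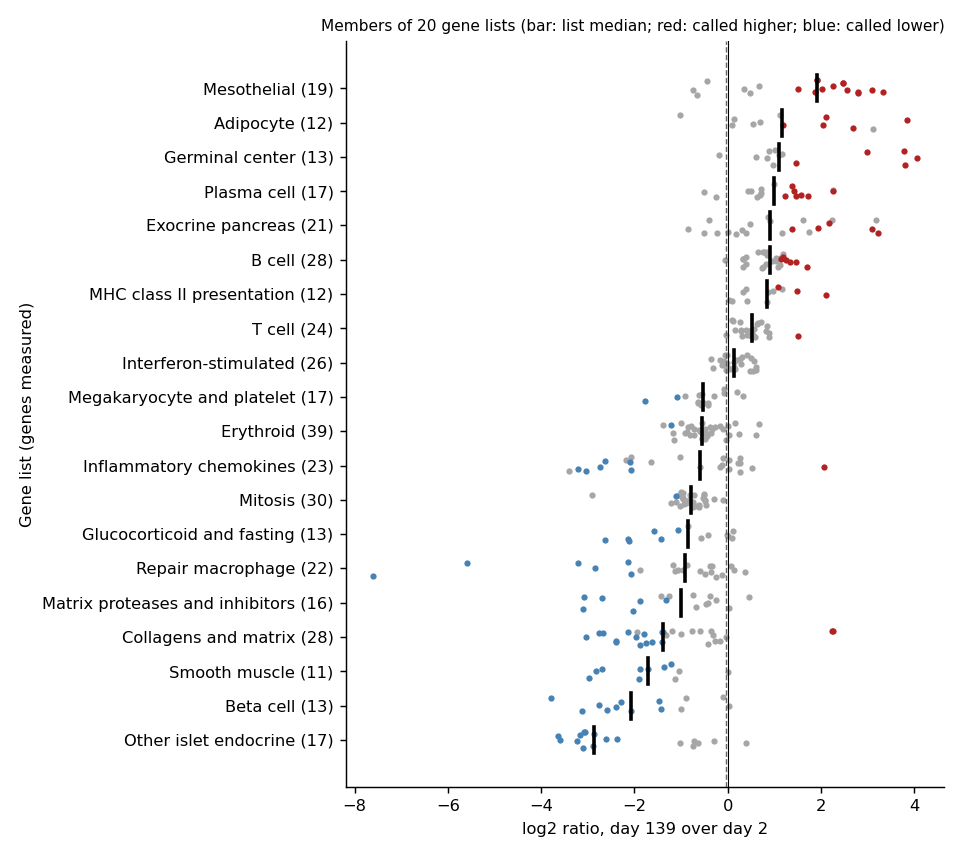
Log2 ratios of day 139 over day 2 (horizontal axis) for the measured members of 20 gene lists (vertical axis, number of genes in brackets). Each point is the brightest probe of 1 gene, black bars are list medians, red and blue points passed the limits, and the dashed line is the median of all probes at -0.04. Islet, smooth muscle and matrix lists lie lowest, and the mesothelial list lies highest with a median of 1.91.

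Antibody transcripts were higher on day 139 across nearly all segments measured. Igkv5-39, whose probe is printed above, had values of 3205, 398 and 26980, a 67.8-fold difference. Igkv4-57-1 had 2645, 690.4 and 20973 and was 30.4-fold higher. For both segments the day 2 value was the lowest of the 3 arrays. Of 83 kappa variable probes well above background on at least 1 of the 2 arrays, 75 were called higher and 0 were called lower. All 83 had a ratio over 1. Among all probes, 2.49% were called higher. The values of the kappa variable probes had a median of 521 on day 0, 365 on day 2 and 1972 on day 139. The log2 ratios ran from 0.17 to 6.08 with a median of 2.82. Heavy chain variable probes gave 22 of 24 called higher and a median of 3.15. The probes are not independent of each other. Against every other kappa variable probe, the best match had a median identity of 82.9%, and 21 of the 83 had a neighbour of at least 90% identity. Of the 100 probes called higher with the largest ratios, 44 were immunoglobulin segments by their description, and of the 100 called lower with the largest ratios 0 were.

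Constant segments, which every antibody of a class shares, were higher as well. The mu chain of IgM, Ighm, had values of 28021, 19206 and 137811, a 7.18-fold difference. For the gamma 2C chain of IgG the values were 16.5, 9.64 and 224. The day 2 value was not well above background, which gives at least 16.0-fold. Both probes of the gamma 1 chain were higher, but they differed in size, with values of 574, 801 and 10044 by one and 2137, 3153 and 5675 by the other, and the second was not called. All 5 lambda probes, which include variable as well as constant segments, were called higher, with a median log2 ratio of 1.71. The immunoglobulin classes were taken by probe description after their values had been seen.

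**Figure D3:**
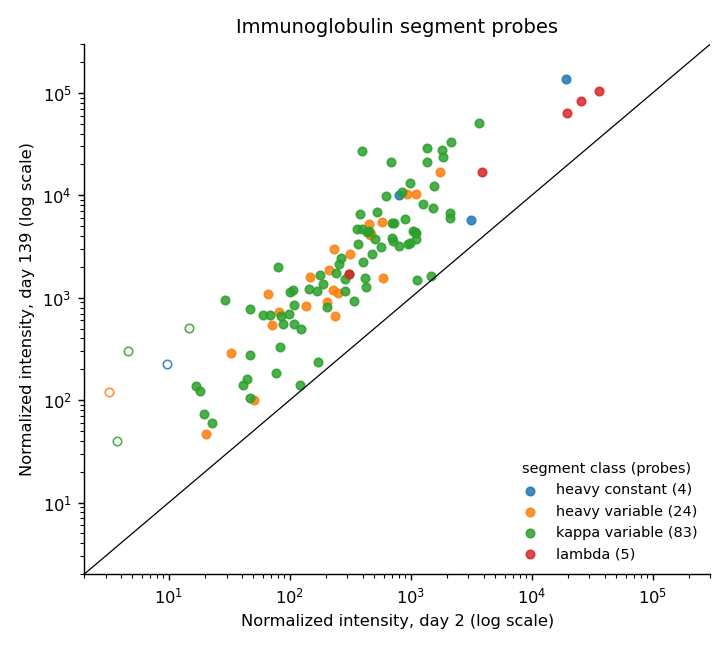
Normalized intensity of 116 immunoglobulin segment probes on day 139 (vertical axis) against day 2 (horizontal axis), both on log scales and coloured by segment class. Open circles were not well above background on day 2, and the line marks equal values. All points lie above the line.

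Genes of the cells that make antibody were higher on day 139. In the plasma cell list, Igj, the joining chain of polymeric antibody, had values of 29396, 21253 and 69806 and was 3.28-fold higher. Tnfrsf17, the plasma cell survival receptor BCMA, was 4.78-fold higher (40.04, 57.6 and 275), and Sdc1, the surface marker syndecan-1, 2.67-fold (147, 190.4 and 509). Xbp1 (24082, 12675 and 20686), a factor of secretory cells, was not called. In all, 7 of 17 measured genes were called higher and 0 lower, against 2.49% of all probes called higher. Among general chaperones of the endoplasmic reticulum 0 of 15 were called in either direction, with a median of 0.00. Hspa5, the main chaperone there, had 20973, 20276 and 20276.

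The germinal center genes were mostly dim, and several were near background until day 139. Rgs13, a G protein regulator of germinal center B cells, was 16.7-fold higher on day 139 than on day 2, with 24.4, 19.97 and 334. Mef2b, a transcription factor of the same cells, was 7.98-fold higher (79.4, 78.4 and 626). On the T cell side, Il21, the cytokine of follicular helper T cells, was at least 9.75-fold higher (3.32, 9.77 and 137), and Pdcd1, the receptor PD-1, 2.74-fold (156, 201 and 551). For each of these 4 genes the day 139 value lay above both early values, which were close to each other or near background. Bcl6, the factor that directs the germinal center program, was not called (2420, 1834 and 3907), nor was Fas (512, 453 and 689). Calls in the list were 5 higher and 0 lower of 13, with a median of 1.09, against 2.49% of all probes called higher. Of the 13, 2 were not well above background on day 2 and entered through day 139 alone, so the filter favours ratios above 1 for them. Over the 11 genes well above background on both arrays the median was 1.02. The erythroid list, which marks another compartment of the mouse spleen, had summed values of 1357100 on day 2 and 1230310 on day 139, and its part in these ratios was not tested.

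B cell genes had 7 of 28 called higher, against 2.49% of all probes, with a median of 0.90. Blk, a kinase of B cell receptor signalling, was 3.27-fold higher (79.6, 93.7 and 306), and Cd22, an inhibitory receptor of B cells, 2.53-fold (672, 552 and 1395). Cr2, the complement receptor of follicular and marginal zone B cells, was not called (13762, 12898 and 16161). In antigen presentation by MHC class II, all 12 measured genes had a ratio over 1 and 3 were called higher. Ciita, the activator of the whole gene set, had 194, 63.9 and 277 and was 4.34-fold higher than on day 2. H2-Ob, a chain of the B cell molecule H2-O, was 2.81-fold higher (1996, 1730 and 4868), and Cd74, the invariant chain, had 44097, 50362 and 66673 and was not called. Ciita had its lowest value on day 2, whereas H2-Ob had similar values on both early arrays.

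T cell genes shifted less. Of 24 measured genes 1 was called higher, Cd247, the zeta chain of the T cell receptor (32.3, 34.3 and 97.8), with a list median of 0.51. Lag3, an inhibitory receptor, was the called member of 14 regulatory and checkpoint genes (263, 166 and 442). Foxp3, the factor of regulatory T cells, had 93.7, 170.0 and 165 and was not called. Among cytotoxic genes, granzymes went opposite ways. Gzmb had 587, 389.7 and 157 and was 2.48-fold lower on day 139, and Gzmk had 82.5, 144 and 401 and was 2.80-fold higher. Perforin, Prf1, had 443, 409 and 491 and was not called.

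**Figure D4:**
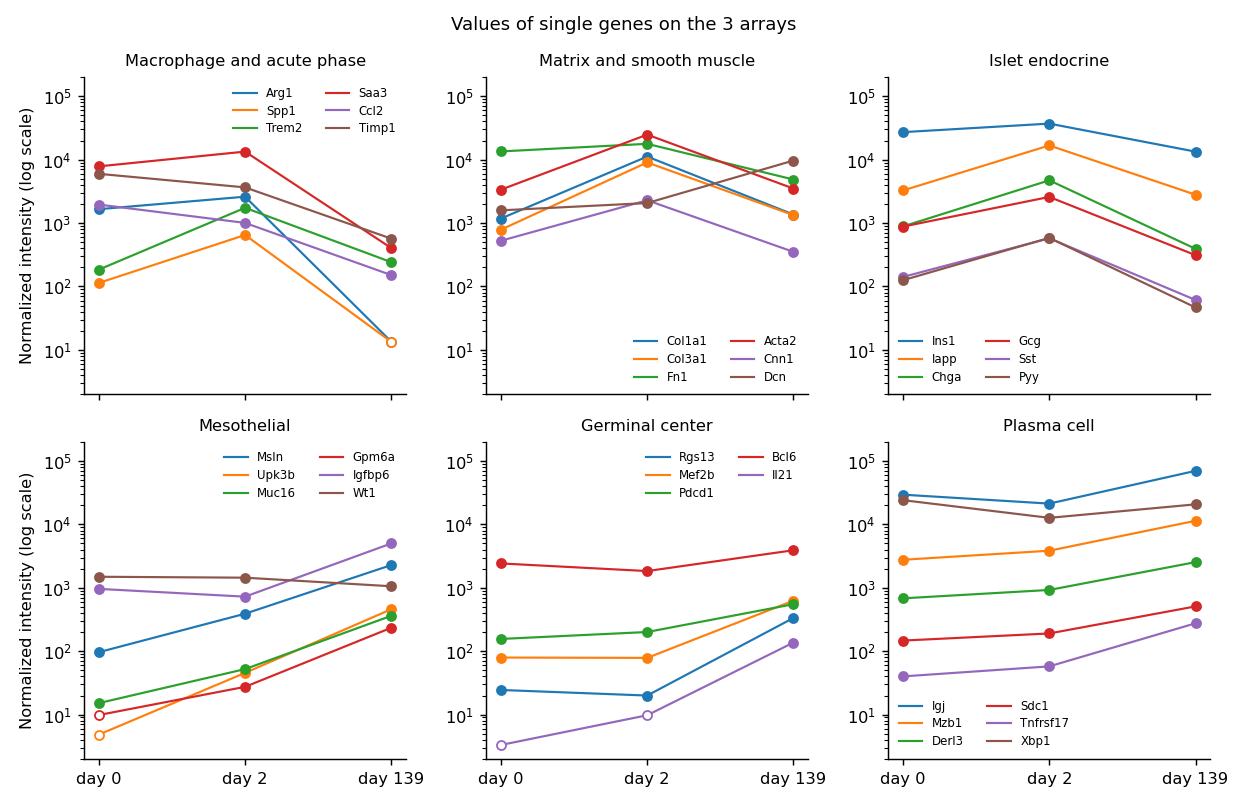
Normalized intensity (vertical axes, log scale) of 35 genes on the day 0, day 2 and day 139 arrays, 1 array per day, with lines that join the values of 1 gene. Open circles were not well above background. Macrophage, matrix, muscle and islet genes end below their day 2 value, apart from Dcn, and the plasma cell, germinal center and mesothelial genes end above it, apart from Wt1.

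Genes of the mesothelium, the lining that covers the spleen, had the highest median of the 41 gene lists. Msln, mesothelin, had values of 96.4, 389.9 and 2282 and was 5.85-fold higher on day 139. Upk3b, a uroplakin of mesothelial cells, was 10.1-fold higher (4.84, 45.5 and 459), and Muc16, a mucin of the same surface, 6.93-fold (15.2, 52.2 and 362). Values climbed from day 0 to day 2 and again to day 139 for these 3 genes. Igfbp6, a binding protein of insulin-like growth factors, was 6.91-fold higher (961, 724 and 5007) from early values of like size. Of 19 measured genes 13 were called higher and 0 lower, against 2.49% of all probes called higher. Wt1, a factor of mesothelium that the adult spleen's stroma also makes, had 1492, 1443 and 1057 and was not called, nor were the keratins Krt8 (88.2, 454 and 272) and Krt18 (131, 672 and 427). The median of 1.91 was 1.23 with a normexp correction.

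Transcripts of fat and of exocrine pancreas, tissues that lie against the spleen, were higher on day 139 too. Cfd, adipsin, had values of 166, 92.0 and 1327 and was 14.4-fold higher than on day 2. Adipoq, the fat hormone adiponectin, was higher by a log2 ratio of 2.04 (21.9, 21.2 and 87.0) and Retn, resistin, 4.33-fold (109.6, 32.5 and 141). In the adipocyte list 5 of 12 measured genes were called higher, against 2.49% of all probes. Of the 12, 2 were not well above background on day 2. Fabp4 (1260, 744 and 1195), which fat cells and macrophages share, was not called. Adig, adipogenin, is not on the list and was at least 9.51-fold lower by one probe (15.7, 158 and 10.5). Its other probe read 18.8, 23.8 and 36.1. Amy2a5, a pancreatic amylase, was 9.31-fold higher (21.3, 43.4 and 404), and its dimmer second probe read 5.70, 6.39 and 62.5. Of 21 measured exocrine genes 5 were called higher, against 2.49% of all probes. Of the 21, 8 were not well above background on day 2 and entered through day 139 alone, so the filter itself favours ratios above 1 for them. The list median of 0.92 was 0.35 over the 12 genes well above background on both arrays. The summed values of the mesothelial list were 83611, 68117 and 97884, of the adipocyte list 6849, 5247 and 7741 and of the exocrine list 1573, 1385 and 2167. These lists, like Dcn and Lum, were higher on day 139 than on day 2, but the lists differed in their course from day 0 to day 2. Median log2 ratios of day 2 over day 0 were 1.62 for the mesothelial, -0.23 for the adipocyte and 0.17 for the exocrine list. The share of attached tissue in any of these values was not tested.

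Several gene lists had few or no called members. None of 26 measured interferon-stimulated genes passed the limits, with log2 ratios between -0.36 and 0.61. Isg15, a ubiquitin-like product of that response, had 30435, 29166 and 26774. Neutrophil genes had 1 of 21 called, Padi4, an enzyme that modifies chromatin (289, 686 and 155), and a median of -0.05. Camp, a granule peptide, had 5295, 7500 and 8696, and S100a8, an alarmin of neutrophils, had its highest value on day 0 (53944, 11604 and 15540). No member was called among 20 endothelial, 15 clock, 11 complement, 14 dendritic cell, 12 white pulp, 17 immediate early or 9 heat shock genes. The medians of the white pulp and heat shock lists were 0.71 and -0.53, with 10 of 12 ratios above 1 and 8 of 9 below. Kdr, the endothelial receptor of VEGF, had 4771, 6236 and 5204. Cxcl13, the chemokine that draws B cells into follicles, had 2025, 1118 and 2477 and missed the limits. Ankrd37, a target of hypoxia factors, was the single called gene of 19 in its list, 4.01-fold higher (172, 95.6 and 383). Of 8 measured transcription factors that direct the forming spleen 1 was called lower, Nkx2-5 (488, 946 and 415). Of 19 cytotoxic and natural killer cell genes Gzmk, a granzyme, was called higher (82.5, 144 and 401) and Gzmb, another granzyme, lower (587, 389.7 and 157). None of the 3 measured genes of the sex chromosome list was called.

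Some of the largest ratios rested on 1 probe of a gene. Alg8, a glucosyltransferase of the endoplasmic reticulum, had the largest ratio among named genes well above background on both arrays, with 122, 122 and 5140, a 42.1-fold difference. A second probe of Alg8, further along the transcript, read 786, 758 and 504. The first probe is shown because its bases come from both sides of an intron, at chr7:104528372-104528750 on the plus strand of mm9.
Alg8: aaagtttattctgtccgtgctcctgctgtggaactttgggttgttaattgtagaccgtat

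Dnajc19, a mitochondrial protein, behaved alike, with 3769, 200.1 and 2833 by one probe and 2072, 2376 and 2367 by the other. Gm11559, a predicted gene, had 413, 13333 and 415 on the called probe, and its other probe was not well above background. Calca, the gene of calcitonin and CGRP, was at least 31.5-fold higher by one probe (4.80, 3.22 and 442). By the other it was not well above background on day 2 or day 139. The 2 probes of Calca were designed on different transcript records, as were those of Dnajc19 and Alg8. Whether they read different forms of the transcript was not tested. Adamts4, by contrast, was lower by both probes, the second with 498, 142 and 3.81. Over 4016 genes with at least 2 probes well above background on both arrays, the brightest and the next probe differed by a median of 0.24 on the log2 scale. Their ratios correlated across genes with r = 0.55, given as a description since probes of 1 gene share its RNA and genes are not independent. Where the brightest probe was called higher, the next probe had the same direction in 33 of 39 genes and passed the limits in 12. Where it was called lower, these counts were 37 of 40 and 15.

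The remaining genes at the extremes came from many pathways. Fmo2, a monooxygenase, had 3.16, 3.39 and 474 and was at least 33.8-fold higher on day 139, and Sfrp2, a secreted Wnt modulator of fibroblasts, had 3.28, 6.82 and 314 and was at least 22.4-fold higher. Angptl7, a matrix-bound angiopoietin-like protein, was 11.4-fold higher (36.8, 20.3 and 231). Slc27a1, a fatty acid transporter, was 9.67-fold higher (365, 378 and 3659), and Tiam1, an activator of Rac, 13.4-fold (132, 134 and 1798). On the lower side, Serpinb2, a plasminogen activator inhibitor of macrophages, had 573, 314 and 33.2 and was 9.47-fold lower, and Alox15, a lipoxygenase, was at least 17.1-fold lower (70.4, 312 and 18.2). Ccdc151, a protein of cilia, was 28.4-fold lower from a single high value on day 2 (14.4, 1479 and 52.0). Vgf, a granule peptide of endocrine cells and neurons, was at least 12.4-fold lower (74.0, 207 and 5.31).

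By kind of probe, those for long intergenic RNA regions gave 1.75% called higher and 1.32% called lower, against 2.49% and 1.6% of all probes. Probes with neither a RefSeq symbol nor such a region gave 7.23% called higher, a class that holds the antibody segments. The 7320 probes of the highest class of G and C content gave 2.45% called lower, against 1.21% of the 8611 probes of the lowest class.

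**Figure D5:**
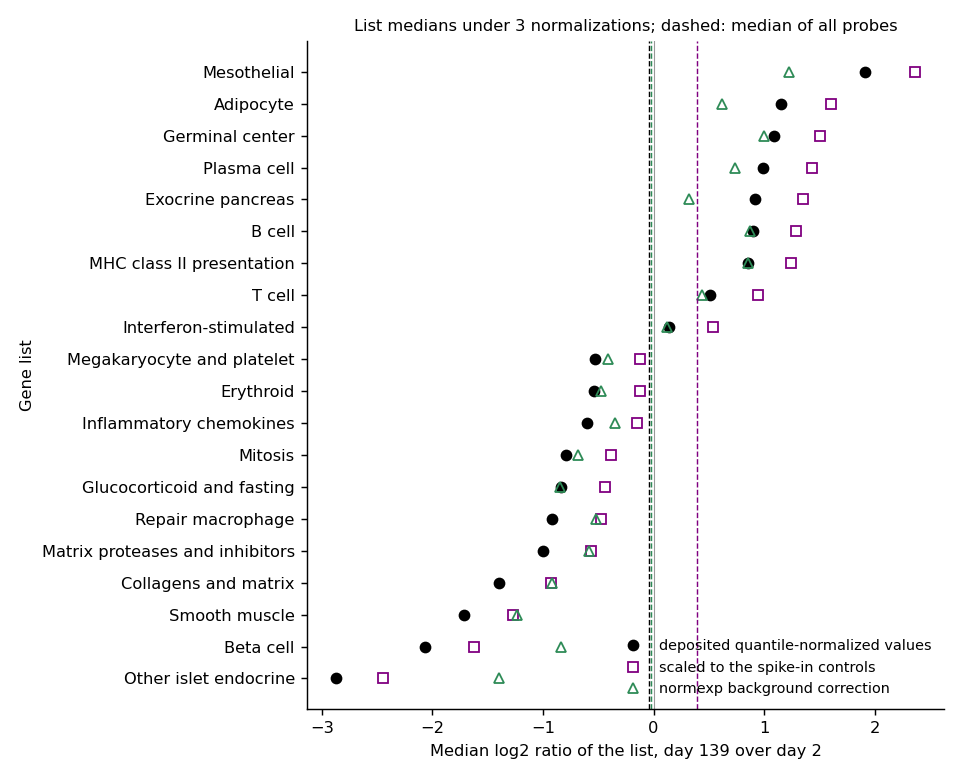
Median log2 ratio of day 139 over day 2 (horizontal axis) for 20 gene lists (vertical axis) under 3 normalizations. Filled circles are the deposited values, squares are scaled to the spike-in controls and triangles use a normexp background correction, with dashed lines for the median of all probes under each. Spike-in scaling moves each list shown to the right by about the shift of all probes, from -0.04 to 0.39, and normexp pulls lists with dim genes toward 0.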

How the data were processed

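Spleen RNA was measured on 3 one-color Agilent arrays with probes of 60 bases, 1 array per condition. The intensity of every spot had been read and background-corrected by the scanner software before the authors deposited it, and the file header names Feature Extraction 10.7.1.1 where the labels name 9.5.1.1. The authors also deposited a table of normalized intensity values per probe, whose columns share 1 distribution, as quantile normalization gives. It followed the scanner signals in rank order (Spearman 0.999995 to 0.999999) and was used for every value in the text. Quantile normalization hides a difference in total mRNA. The labels and the study's methods name different RNA purification and labeling kits.

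A floor of 1 was set before values were put on the log2 scale, and the deposited flags gave which probes were well above background. Calls followed the study's limits, with the formula for the Z-score chosen here. A probe not well above background on 1 array received a bound, set by its own value there or, if higher, by the lowest value of any probe well above background (14.0 on day 2, 16.7 on day 139). The number of arrays limits the precision.

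Each gene took its brightest probe. Coordinates are those of the array design on mm9. Of 55681 probes, 27235 were matched to a RefSeq gene of GRCm38.p6 by accession, 3581 by symbol and 565 by synonym, and 24300 kept the name of the array. Named were the 15 highest and 15 lowest ratios among called probes well above background on both arrays, the 6 largest bounds each way, and members of 41 gene lists; 1 gene was left out of each of 2 lists and is not reported here. Members and lists were chosen with earlier results of these data known. The alternatives were spike-in, 75th percentile and normexp (offset 50, limma 3.58.1 in R 4.3.3) processing of the scanner signals, their quantile normalization, a higher floor, detection on both arrays or no detection filter, other Z-score spreads, windows and centres, a ratio of 2, and the median over probes. Python 3.11.15, numpy 2.4.6, pandas 2.3.3 and matplotlib 3.10.9 were used. The code for the calls was run on simulated ratios of smaller spread than these, which checks the code and not the accuracy of the calls here. Staining, cytokine and blood glucose measurements were not analysed here.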

Additional observations from a re-analysis of the deposited data

How the results depend on the processing

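The counts of called probes depended most on the scaling and on how the Z-score was formed. Scaling to the spike-in controls gave 1611 probes called higher and 237 called lower, a Z-score from the local median absolute deviation 1624 and 1498, and a ratio of 2 or 0.5 without a Z-score 1720 and 1856, against 769 and 493. The other 9 alternatives moved either count by less than 1.5 times. Of the gene lists, 19 had a median ratio past 1.5 or 0.66, and these kept their direction under each of the 8 alternatives run on lists. Lists nearer to 0 changed sign under spike-in scaling, among them acute phase proteins (0.11) and the p53 targets (0.31). All probes had a median of 0.39 there, so these 2 lists still lay below all probes. With the deposited values their medians were -0.31 and -0.10, against -0.04 for all probes. Of 167 genes covered by the naming rule and called, none changed direction, and 144 were still called under spike-in scaling and 153 under normexp. Dim genes limit the size of the islet, exocrine, mesothelial and repair macrophage differences. Leaving out a replicate was not possible with 1 array per condition. No paired analysis was possible because each condition has a single array and no test was run.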
